A study of Rattus norvegicus with 12 samples.

Results

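The synaptic vesicle and release machinery was followed in rat cortical cultures as a set of 38 genes named by their role at the presynaptic terminal. Of these names, 37 had a row among the 28111 gene names of the files, and amphiphysin (Amph) was not analysed here. Each of the 37 passed the filter on low values in every comparison. The material was a primary mixed culture of neurons and glia, dissociated from the cerebral cortex of newborn Wistar rats and kept for 10 days in vitro. The age of the pups is P0 in the labels and P1 to P2 in the methods. Cytosine arabinoside had been added early in culture to hold back glial division, and microglial markers were nearly absent, while markers of neurons, astrocytes and the oligodendrocyte lineage were present (given at the end). RNA was taken 4 h after the addition of preparations made from human glial progenitor cells (GPCs), which had been differentiated from induced pluripotent stem cells. There were 4 groups of 3 libraries. The intact control (IC) received nothing, the EV group received extracellular vesicles of GPCs at 10 µg/mL, the 3-100 kDa group received proteins of that size range at 15 µg/mL, and the total secretome group received everything the GPCs secreted at 45 µg/mL. The doses differed between the preparations, so differences between treated groups compare preparations at the doses given. The 3-100 kDa proteins and the total secretome are called the protein preparations below for brevity. The paper counts vesicles as part of a secretome, so this name does not mean that the total secretome was free of vesicles. EV and the total secretome may therefore be a part set against a whole. The sources used here describe no group given the solvent alone.

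Transmitter is released when a synaptic vesicle, filled by a vesicular transporter, is brought to the active zone, docked and primed there, and fused with the plasma membrane by SNARE proteins after calcium binds a synaptotagmin. The vesicle membrane is then taken back by endocytosis and refilled. In cortical neurons these genes are switched on as axons mature, and their transcripts are used as a measure of neuronal content as well as of synapse formation.

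The values are TPM, a share of all transcripts in a library, which correct for transcript length, so levels of different genes can be set side by side. In the IC cultures all 37 genes were expressed, and none was at 0 in any of the 12 libraries, where the lowest value of a member was 1.03 TPM. Of the 37, 14 lay over 100 TPM on average, 19 between 10 and 100 TPM and 4 under 10 TPM. The coefficient of variation over the 3 IC libraries ran from 1.74% for Slc17a7 to 43.9% for Pclo, with a median of 16.6%. The depth of the libraries is unknown, so no counting error can be attached to these levels.

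A gene of the fusion machinery led the order, with Rab3a, Syp and Syt11 next. Vamp2, the vesicle SNARE of central synapses, was the most abundant member with 639.2, 660.2 and 584.5 TPM in the 3 IC libraries. Its paralog Vamp1 was at 5.95 ± 0.653 TPM (SD, n = 3), which is 105.5 times lower. The plasma membrane SNARE Snap25 had 205.8, 137.4 and 161.0 TPM, and its partner Stx1a averaged 108 ± 17.8 TPM. The complexins, which bind the assembled SNARE complex, were at 282 ± 11.7 TPM (Cplx2) and 145 ± 7.16 TPM (Cplx1). Vamp2 was thus the main vesicle SNARE transcript in these cultures and Vamp1 a minor one.

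Among the calcium sensors and their relatives, the fast sensor of synchronous release Syt1 had 264.6, 196.0 and 335.7 TPM in IC, 110.2 times the mean of Syt2, its counterpart at 2.41 ± 0.444 TPM. Syt11, a synaptotagmin that lacks calcium binding, was the highest of the group with 300.5, 298.3 and 278.9 TPM. The other atypical member Syt4 averaged 214 ± 28.6 TPM, in the same range as Syt1. Syt5 was at 143 ± 12.3 TPM and Syt7, a slow high-affinity sensor, at 55.6 ± 11.0 TPM. The Rab3 effector rabphilin, Rph3a, had 71.0, 69.4 and 76.9 TPM. Doc2b (13.9 ± 2.87 TPM), Syt6 (8.94 ± 2.63 TPM) and Syt12 (3.15 ± 0.394 TPM) were at the low end.

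The vesicle membrane proteins and synapsins were led by Syp, the synaptophysin used as a general vesicle marker, with 309.2, 309.6 and 259.2 TPM. Syn1, the synapsin that tethers vesicles to the cytoskeleton, had 166.3, 144.1 and 175.4 TPM. Syn1 was 3.91 times as high as Syn2 (41.4 ± 3.39 TPM), and Syn3 was at 44.6 ± 11.8 TPM. Of the SV2 glycoproteins, Sv2a (168 ± 25.5 TPM) was 10.7 times Sv2b (15.8 ± 6.05 TPM), with Sv2c between them at 34.7 ± 8.75 TPM. In each of these families a single paralog therefore held most of the transcript.

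The active zone proteins were expressed at lower levels, all 5 of them between 15.9 and 29.1 TPM on average. The priming factor Unc13a was the highest with 30.9, 20.8 and 35.4 TPM, followed by Rims1 (26.5 ± 8.41 TPM) and the large scaffolds Pclo (20.5 ± 8.99 TPM) and Bsn (19.5 ± 4.26 TPM), and by Rims2 (15.9 ± 3.62 TPM). The spread of each of these overlapped that of its neighbours in the order. Rab3a, the vesicle GTPase bound by the RIM proteins, reached 345.0, 370.4 and 306.6 TPM, 6.19 times Rab3b, and Rab3c was at 61.0 ± 13.6 TPM. Among the transporters that fill vesicles, the glutamate transporter Slc17a7 (VGLUT1) had 71.4, 73.5 and 73.7 TPM, 4.93 times Slc17a6 (VGLUT2) with 15.8, 11.2 and 17.4 TPM. The inhibitory transporter Slc32a1 had 47.5, 58.0 and 50.9 TPM, so vesicle filling genes of glutamatergic and of inhibitory terminals were both present. The endocytic GTPase Dnm1 had 125.5, 138.6 and 122.0 TPM and the phosphatase Synj1, which helps strip the coat from retrieved vesicles, averaged 44.5 ± 10.3 TPM. Nrn1, which encodes neuritin, a membrane-anchored protein induced by activity that promotes neurite and synapse growth, had 15.2, 14.2 and 10.3 TPM. It is in the set but is not a part of the fusion machinery itself.

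**Figure D1:**
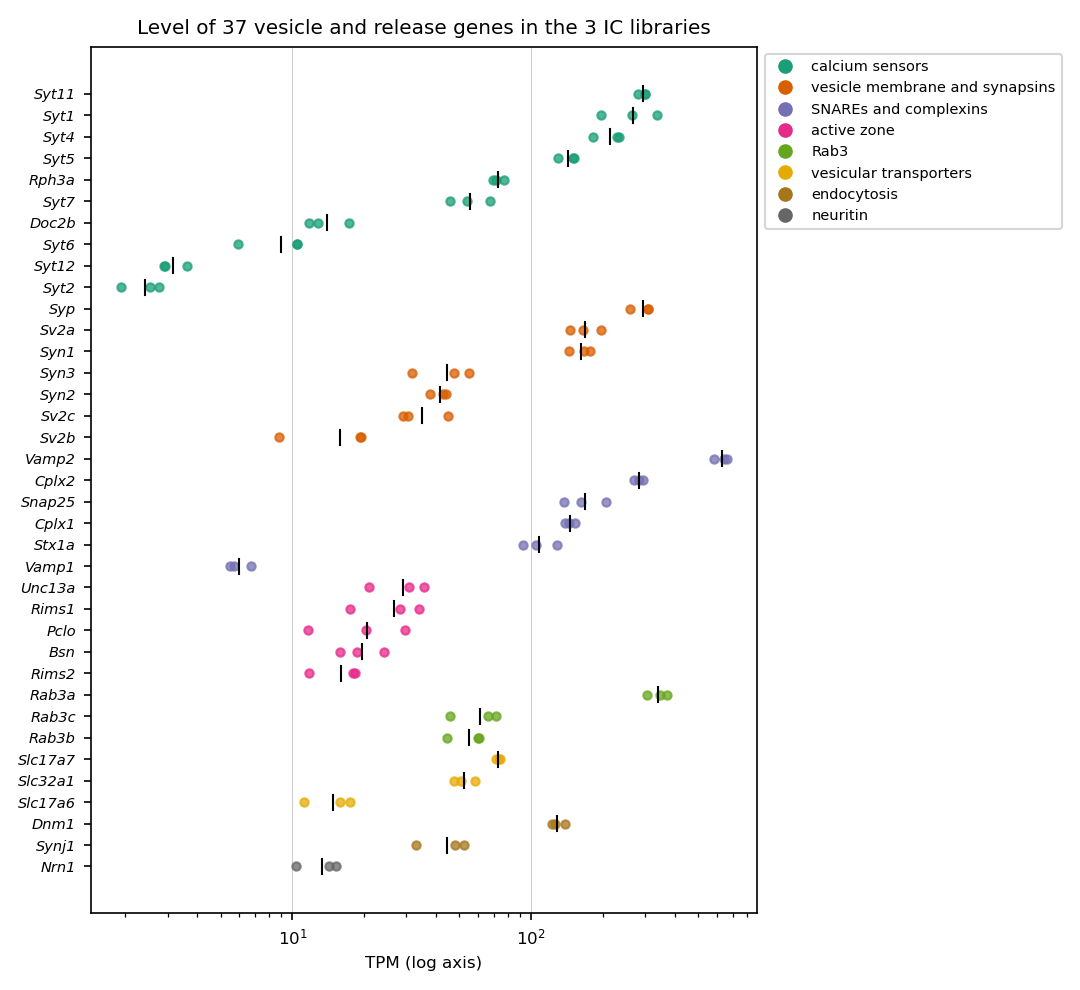
Level of each of the 37 genes in the 3 IC libraries (points) with the mean (black line), in TPM on a log axis, coloured by role. Vamp2 stood at the top and Syt2 at the bottom, and the 5 active zone genes sat together between 11.6 and 35.4 TPM.

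EV-GPCs did not move the release genes to an extent that could be detected with 3 libraries a group. The limma test was run on log2(TPM + 1) and its p-values were adjusted by Benjamini-Hochberg over all genes tested. Differences are given as treated minus IC on that log2 scale. At an FDR under 0.05, 0 of the 37 genes differed between EV and IC, where 0.141% of 12749 genes did. At an unadjusted p under 0.05 the count was also 0 of 37, against 2.82% of all genes, and adding a fold of over 1.5 gave 0 against 2.16%. No member had its 3 EV libraries all above or all below the 3 IC libraries, which 5.10% of all genes had. Overlap of libraries is judged here and below on TPM before the rescaling used in the test. The median difference of the members was -0.02, and 19 of the 37 were below 0 (51.4%), beside 51.8% of all genes. This count was 12 without IC 3 and 29 without IC 2 or without EV 3. The differences ran from -0.35 for Syt2 to 0.36 for Syt12, the members of lowest level.

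The intervals show how much change could have been missed. For 17 of the 37 genes the 95% interval of the EV difference lay within a 1.5-fold change in either direction, and for 34 it lay within a 2-fold change. The intervals were narrow for Cplx2, at 0.00 with an interval of -0.30 to 0.31, and for Vamp2, at 0.02 with -0.34 to 0.38. They were wide for the scaffold Pclo, at 0.15 with -0.85 to 1.16. Syt1 had 181.9, 283.1 and 367.5 TPM in the EV libraries, a spread as broad as in IC, and its difference was 0.03 (SE 0.31). Snap25 had 162.3, 191.7 and 152.0 TPM (difference 0.01, SE 0.17) and Syp 354.3, 235.7 and 270.5 TPM (-0.05, SE 0.20). Slc17a7 had 73.8, 56.0 and 79.9 TPM (-0.08, SE 0.19) and Slc32a1 54.0, 51.2 and 62.9 TPM (0.09, SE 0.17). In each of these genes the EV and IC libraries overlapped.

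With the protein preparations 1 member passed the FDR in each comparison with IC, Nrn1 above and Rph3a below. These fits did not take the replicate number as a block. Nrn1 had 30.6, 25.6 and 19.4 TPM in the 3-100 kDa group and 23.2, 26.3 and 18.6 TPM with the total secretome, against 10.2, 12.1 and 12.1 TPM with EV. All 6 libraries of the protein preparations lay above all 6 libraries of IC and EV. Nrn1 rose by 0.90 with the 3-100 kDa proteins (SE 0.18, limma adjusted p = 0.046), and was 0.76 higher with the total secretome (SE 0.17, limma adjusted p = 0.0715), which missed the threshold. With EV the difference was -0.18 (SE 0.18). Rph3a went the other way. It had 44.6, 52.0 and 48.6 TPM in the 3-100 kDa group and 49.7, 45.2 and 41.8 TPM with the total secretome, against 62.0, 79.7 and 71.5 TPM with EV. Again the protein preparations and the other 2 groups did not overlap. Rph3a fell by 0.64 on the log2 scale with the total secretome (SE 0.12, limma adjusted p = 0.0487), a call that the replicate block did not keep (limma adjusted p = 0.0692). With the 3-100 kDa proteins the difference was -0.54 (SE 0.14, limma adjusted p = 0.10) and with EV -0.04 (SE 0.15).

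These calls stand close to the threshold. The Nrn1 call with the 3-100 kDa proteins was lost when any of the 6 libraries was left out, with adjusted p between 0.0509 and 0.200 and a log2 difference between 0.784 and 1.01. The Rph3a call with the total secretome was lost in 5 of 6 such fits, with a log2 difference between -0.701 and -0.548 and the highest adjusted p 0.259. It was kept without IC 2 (adjusted p = 0.0234), where Nrn1 and Syn2 were also called and 809 of 12614 genes passed in all, in place of 252. Libraries of the total secretome and IC with the same number deviated together, and with the replicate number as a block neither Rph3a nor Nrn1 (adjusted p = 0.0607) passed, beside 1.96% of all genes. For the 3-100 kDa proteins against IC the block gave Nrn1 a limma adjusted p of 0.0898, beside 1.51% of all genes called. In a fit of all 12 libraries, which share an estimate of the spread, both genes were called in both comparisons, and calls over all genes rose from 423 to 938 (7.34%) with the 3-100 kDa proteins and from 252 to 539 (4.22%) with the total secretome.

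Calls among the members are read here beside the share of all genes called. With the 3-100 kDa proteins 1 of 37 members passed the FDR (Nrn1, 2.70%), beside 3.31% of 12788 genes. With the total secretome it was again 1 (Rph3a, 2.70%), beside 1.97% of 12787 genes. With the replicate block it was 0 in both comparisons, beside 1.51% and 1.96% of all genes. At an unadjusted p under 0.05 the 3-100 kDa count was 2, Nrn1 higher and Rph3a lower (5.41%), beside 17.0% of all genes, and with a fold of over 1.5 it was Nrn1 alone, beside 10.0%. With the total secretome 6 members (16.2%) were under that p, beside 16.2% of all genes, and Nrn1 and Rph3a had a fold of over 1.5 as well, beside 8.09%. With the replicate number as a block Cplx1 was no longer under it, which left 5 members (13.5%) beside 18.7% of all genes. Single libraries moved these counts at the unadjusted p. The 3-100 kDa count was 4 without IC 3, beside 15.6% of all genes, and 6 without 3-100 kDa replicate 1, beside 18.5%. The total secretome count was 3 without its replicate 2 or 3, beside 9.40% and 10.4% of all genes, and 15 without IC 2, beside 27.8%.

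The 4 further members under an unadjusted p of 0.05 with the total secretome were all lower than in IC, and none of them passed the adjustment. Syn2 had 30.8, 28.6 and 24.7 TPM against 42.8, 37.5 and 43.8 TPM in IC, with no overlap, a difference of -0.53 (SE 0.13) and a limma adjusted p of 0.102. Sv2a had 147.7, 110.4 and 115.7 TPM against 163.9, 196.0 and 145.5 TPM (-0.41, SE 0.14, limma adjusted p = 0.205). These overlapped before rescaling, but not after rescaling over all 12 libraries. Dnm1 had 110.5, 103.2 and 95.1 TPM, all below IC (-0.30, SE 0.11, limma adjusted p = 0.223). Cplx1 had 131.3, 105.2 and 111.1 TPM, likewise all below IC (-0.31, SE 0.11, limma adjusted p = 0.243). A synapsin, a vesicle glycoprotein, the endocytic GTPase and a complexin were thus the genes next in order after rabphilin and neuritin.

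**Figure D2:**
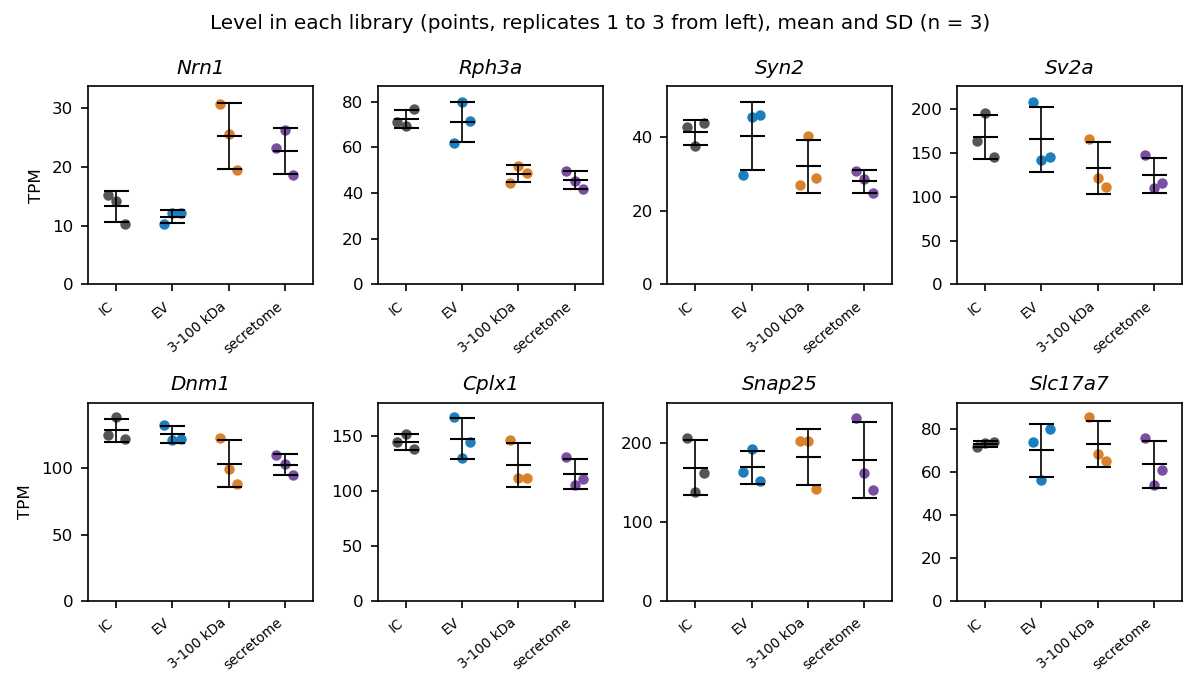
TPM of 8 genes in each of the 12 libraries (points, replicates 1 to 3 from left), with the mean and SD of each group (n = 3). Nrn1 was higher and Rph3a lower in all 6 libraries of the protein preparations than in the IC and EV libraries, while Snap25 and Slc17a7 overlapped between all groups.

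The stretches before the gene start of the 3 members with the lowest p among those lower with the total secretome are shown to see whether they share a motif. They are 250 bases each from RefSeq on the GRCr8 build, a later assembly than that of the deposited values, all on the plus strand and written 5′ to 3′. Capitals mark matches on either strand to the letters searched, which were TGACGTCA (the cyclic AMP response element), GCGNGGGCG (EGR), GGGCGG (the GC box) and TGANTCA (AP-1). The Rph3a stretch is chr12:41203312-41203561, that of Syn2 chr4:149858669-149858918 and that of Sv2a chr2:186430113-186430362.
Rph3a: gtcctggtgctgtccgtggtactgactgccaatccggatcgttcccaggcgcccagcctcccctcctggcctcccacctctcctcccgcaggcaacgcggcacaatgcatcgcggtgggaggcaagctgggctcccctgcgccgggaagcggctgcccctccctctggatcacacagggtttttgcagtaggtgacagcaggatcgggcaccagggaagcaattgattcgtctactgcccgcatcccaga
Syn2: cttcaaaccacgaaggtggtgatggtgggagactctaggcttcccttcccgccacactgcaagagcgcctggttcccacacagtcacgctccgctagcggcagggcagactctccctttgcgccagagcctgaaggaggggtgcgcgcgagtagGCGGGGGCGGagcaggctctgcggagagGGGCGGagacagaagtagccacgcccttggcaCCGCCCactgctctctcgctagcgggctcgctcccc
Sv2a: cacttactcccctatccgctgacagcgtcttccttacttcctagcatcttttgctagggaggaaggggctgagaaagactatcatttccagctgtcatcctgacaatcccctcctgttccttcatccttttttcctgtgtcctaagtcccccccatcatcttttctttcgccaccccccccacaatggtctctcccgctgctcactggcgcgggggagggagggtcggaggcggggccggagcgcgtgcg
The Syn2 stretch held an EGR match that overlaps a GC box, and 2 further GC boxes. Neither the Rph3a nor the Sv2a stretch held any of the 4 motifs, so these 3 genes shared none of them in this window. Of the 38 members 30 had an entry in the promoter table, and Nrn1 was not among them. Over these 30, 19 held a GC box (63.3%), beside 30.5% of all 33469 promoters and 38.9% of the 21851 protein-coding ones. An EGR match was in 6 (20%), in Syn1, Syn2, Syp, Syt1, Unc13a and Vamp2, beside 4.29% of all and 5.55% of protein-coding promoters. The cyclic AMP response element was in Syn1 and Vamp1 (6.67%), beside 1.59% and 1.89%. AP-1 was in 0 of 30, beside 6.34% and 5.69%. The median GC content was 64.2% in the members and 54% in protein-coding promoters, and GC-rich motifs are found more often in GC-rich sequence. A match in letters is not a bound site.

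Most members leaned below IC with the protein preparations, by small amounts. With the 3-100 kDa proteins the median difference was -0.10 and 27 of 37 members were below 0 (73.0%), beside 52.6% of all genes with a median of -0.02. With the total secretome the median was -0.21 and 30 of 37 were below 0 (81.1%), beside 51.7% of all genes with a median of -0.01. Libraries that did not overlap were found for 4 members with the 3-100 kDa proteins (10.8%), Nrn1 higher and Rph3a, Syt11 and Syt2 lower, which is under the 20.6% of all genes. With the total secretome it was 11 members (29.7%), beside 20.2% of all genes. Nrn1 and Syt12 were higher, and Cplx1, Cplx2, Dnm1, Rph3a, Slc32a1, Syn2, Syt11, Syt2 and Vamp1 were lower. Both comparisons use the same 3 IC libraries, so their signs are not independent of each other. The count below 0 depended on single control libraries. With the 3-100 kDa proteins it was 19 of 37 without IC 3 and 29 without IC 2, and with the total secretome 22 without IC 3 and 34 without IC 2. The medians were then -0.0409 and -0.174 with the 3-100 kDa proteins, and -0.107 and -0.245 with the total secretome.

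By role, the medians with the total secretome were -0.28 for the 3 Rab3 genes, -0.23 for the 6 SNAREs and complexins, -0.22 for the 7 vesicle membrane genes and synapsins and -0.21 for the 3 transporters. They were -0.15 for the 10 calcium sensors and relatives, -0.19 for the endocytic genes Dnm1 and Synj1, and -0.09 for the 5 active zone genes. With the 3-100 kDa proteins the Rab3 median was -0.26, that of the vesicle membrane genes -0.16, of the SNAREs and complexins -0.15, of the endocytic genes -0.10, of the active zone -0.08, of the calcium sensors -0.07 and of the transporters 0.02. With EV these medians lay between -0.04 and 0.09. Within these role groups Rph3a alone passed the FDR, with the total secretome and without the replicate block.

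The most abundant member of each role and the marker genes show the same small sizes. Vamp2 had 671.9, 582.8 and 514.3 TPM with the 3-100 kDa proteins (-0.07, SE 0.13) and 652.3, 521.7 and 555.3 TPM with the total secretome (-0.11, SE 0.13). Rab3a had 326.1, 264.1 and 264.3 TPM (-0.23, SE 0.14) and 330.2, 246.6 and 248.8 TPM (-0.30, SE 0.13, limma adjusted p = 0.313). Before rescaling, in both genes replicate 1 of each protein preparation lay at or above the lowest IC library and the other replicates below all of IC. After rescaling over all 12 libraries, replicate 1 of Rab3a was also below IC in each preparation. Syt11 had 230.6, 273.4 and 208.8 TPM (-0.28, SE 0.12, limma adjusted p = 0.301) and 244.0, 262.4 and 219.2 TPM (-0.26, SE 0.11, limma adjusted p = 0.311), all below the 3 IC libraries. Syp had 328.2, 237.3 and 215.9 TPM (-0.16, SE 0.16) and 300.4, 230.6 and 218.7 TPM (-0.22, SE 0.12), again with replicate 1 at the level of IC.

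Other marker genes did not separate from IC. Syt1 had 197.3, 291.4 and 243.7 TPM with the 3-100 kDa proteins (-0.07, SE 0.25) and 232.0, 202.8 and 229.5 TPM with the total secretome (-0.21, SE 0.22). Snap25 had 202.0, 202.1 and 141.1 TPM (0.14, SE 0.17) and 231.3, 161.7 and 139.9 TPM (0.09, SE 0.18). Syn1 had 143.8, 154.3 and 145.5 TPM (-0.10, SE 0.14) and 159.1, 139.8 and 142.2 TPM (-0.12, SE 0.13). These values all overlapped those of IC. Unc13a, the priming factor, had 25, 32.3 and 25.2 TPM (-0.02, SE 0.23) and 30.0, 25.7 and 26.3 TPM (-0.04, SE 0.21). Dnm1 with the 3-100 kDa proteins had 123.1, 99.5 and 88.1 TPM (-0.29, SE 0.14, limma adjusted p = 0.342).

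The transporters were read to compare glutamatergic with inhibitory terminals. Slc17a7 had 85.3, 68.3 and 65.2 TPM with the 3-100 kDa proteins (0.02, SE 0.14) and 75.6, 53.9 and 60.9 TPM with the total secretome (-0.19, SE 0.14). Slc17a6 had 12.1, 17.0 and 15.0 TPM (0.03, SE 0.23) and 15.0, 11.5 and 10.8 TPM (-0.21, SE 0.21). Slc32a1 had 45.9, 52.4 and 44.6 TPM (-0.10, SE 0.14) and 43.5, 37.9 and 44.1 TPM (-0.29, SE 0.15, limma adjusted p = 0.395). All 3 were below IC on average with the total secretome, and none passed the test. Other markers of excitatory neurons had median differences of -0.25 with the 3-100 kDa proteins and -0.30 with the total secretome over 5 genes tested. Those of inhibitory neurons had -0.28 over 9 and -0.15 over 10 genes. With EV the medians were -0.02 and 0.02.

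Of the members whose point estimate was above 0 with the protein preparations, Nrn1 alone passed the test. Sv2c, the SV2 glycoprotein with a restricted brain distribution, had 41.2, 75.9 and 44.9 TPM with the 3-100 kDa proteins against 30.4, 29.0 and 44.8 TPM in IC (0.62, SE 0.28, limma adjusted p = 0.311), with the second replicate far above the others. Syt12 had 5.10, 3.89 and 4.71 TPM with the total secretome against 2.93, 3.60 and 2.91 TPM in IC, with no overlap (0.44, SE 0.19, limma adjusted p = 0.323). Syt4, an atypical synaptotagmin induced by activity, was 0.25 higher with the 3-100 kDa proteins (SE 0.19) and 0.12 with the total secretome (SE 0.14). The 95% interval lay within a 1.5-fold change for 15 members with the 3-100 kDa proteins and for 16 with the total secretome, and within a 2-fold change for 33 and 34.

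**Figure D3:**
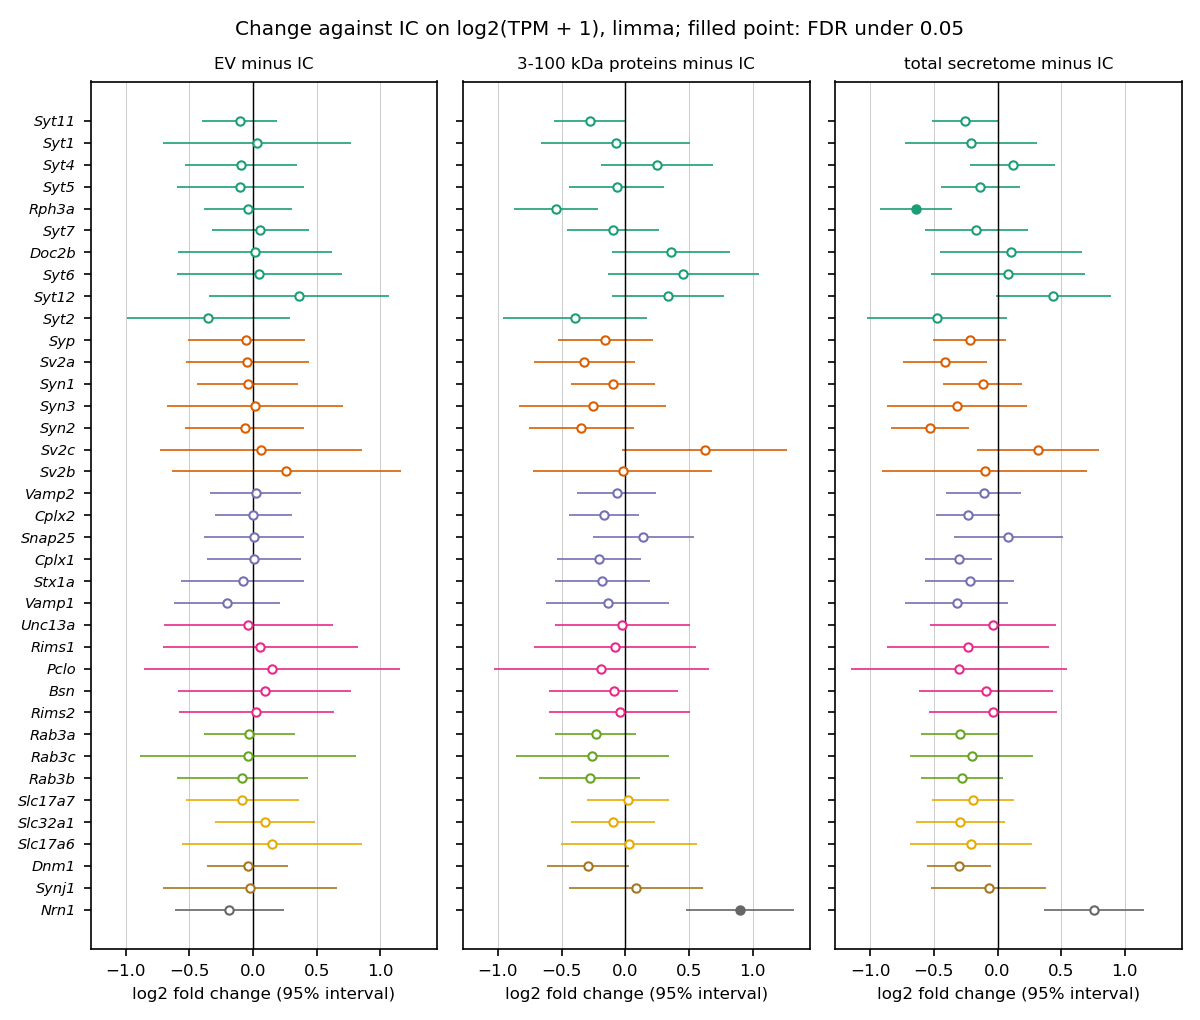
Difference of each of the 37 genes from IC on log2(TPM + 1) with its 95% interval from limma, for EV, the 3-100 kDa proteins and the total secretome, coloured by role. Filled points passed an FDR under 0.05, which were Nrn1 at 0.90 and Rph3a at -0.64 (both in fits without the replicate block), and the EV points lie close around 0.

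Set against each other, EV and the protein preparations gave their lowest p among the members in Nrn1 and Rph3a, and no member passed the FDR between the protein preparations. Nrn1 was 1.07 lower on the log2 scale with EV than with the 3-100 kDa proteins (difference -1.07, SE 0.17, limma adjusted p = 0.0606) and differed by -0.93 from the total secretome (SE 0.16, limma adjusted p = 0.129). Rph3a was 0.51 higher with EV than with the 3-100 kDa proteins (SE 0.13, limma adjusted p = 0.255) and 0.61 higher than with the total secretome (SE 0.12, limma adjusted p = 0.193). The libraries of these groups did not overlap in either gene. At an FDR under 0.05 and without the replicate block, 0 members differed between EV and the 3-100 kDa proteins, beside 0.534% of 12734 genes. Between EV and the total secretome it was also 0, beside 0.188% of 12758 genes. By an unadjusted p under 0.05 and a fold of over 1.5 the counts were 1 (Nrn1), beside 5.14%, and 2 (Nrn1 and Rph3a), beside 4.00%.

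In the comparison of EV with the 3-100 kDa proteins, libraries with the same number deviated together, and with the replicate number as a block both Nrn1 (limma adjusted p = 0.0308) and Rph3a (limma adjusted p = 0.0384) passed the FDR. Over all genes the block gave 340 calls of 12734 in this comparison, in place of 68. For EV and the total secretome the block gave 0.162 and 0.222. The total secretome and the 3-100 kDa proteins differed in 0 members at an FDR under 0.05, beside 0.0157% of 12713 genes, and in 0 by the second rule, beside 1.24%. For this pair the 95% interval lay within a 1.5-fold change for 29 of 37 members and within a 2-fold change for all 37. Nrn1 differed by -0.13 with an interval of -0.51 to 0.24, and Rph3a by -0.09 with an interval of -0.33 to 0.15.

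The spread between libraries of the same group was shared by many members. Over the deviations of the 37 genes from their own group means, the first principal component held 67.5% of the variance across the 12 libraries and the second 16.1%. The deviations were read against the length of each gene in the genome, which is known for all 37 members. Of the members, 10 span over 100 kb (Syt1, Syt2, Syn2, Syn3, Sv2b, Sv2c, Rims1, Rims2, Pclo and Rab3c). In EV 1 all 10 of these were below their group mean, with a median deviation of -0.48 on log2(TPM + 1), and in IC 2 it was 9 of 10 with a median of -0.40. In 3-100 kDa replicate 1 it was 9 of 10 with -0.31. In IC 3 and EV 3, by contrast, 0 of 10 were below, with medians of 0.43 and 0.40. The 7 members that span under 10 kb (Syt5, Syt4, Vamp1, Vamp2, Rab3a, Slc32a1 and Nrn1) had medians of 0.00 in EV 1, 0.07 in IC 2 and 0.15 in 3-100 kDa replicate 1. Pclo shows the pattern in values, with 11.6 TPM in IC 2 and 29.6 in IC 3, and 12.4 TPM in EV 1 and 30.0 in EV 3.

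The same libraries stood apart over all genes. Among the 11135 genes with a known span, the median deviation of 1873 genes over 100 kb minus that of 2523 genes under 10 kb was -0.552 in EV 1, -0.499 in IC 2 and -0.317 in 3-100 kDa replicate 1. It was between -0.0625 and 0.396 in the other 9 libraries. With these 3 libraries left out, 0 members passed the FDR for EV against IC, beside 0.121% of all genes. Nrn1 passed it for the 3-100 kDa proteins (0.83, limma adjusted p = 0.0408), in a fit that called 7.40% of all genes in place of 3.31%. At an unadjusted p under 0.05 the members in this last comparison then numbered 2 higher and 9 lower, in place of 1 and 1, while over all genes 27.7% were under this p in place of 17.0%. For the total secretome, leaving out IC 2 gave 2 higher and 13 lower in place of 1 and 5, and over all genes 27.8% in place of 16.2%. Leaving out IC 3 instead, in which long genes were high (0.396), gave 3 higher and 1 lower for the 3-100 kDa proteins, beside 15.6% of all genes. For the total secretome it gave 2 higher and 4 lower, beside 16.1%. What made long genes low in these libraries was not tested.

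**Figure D4:**
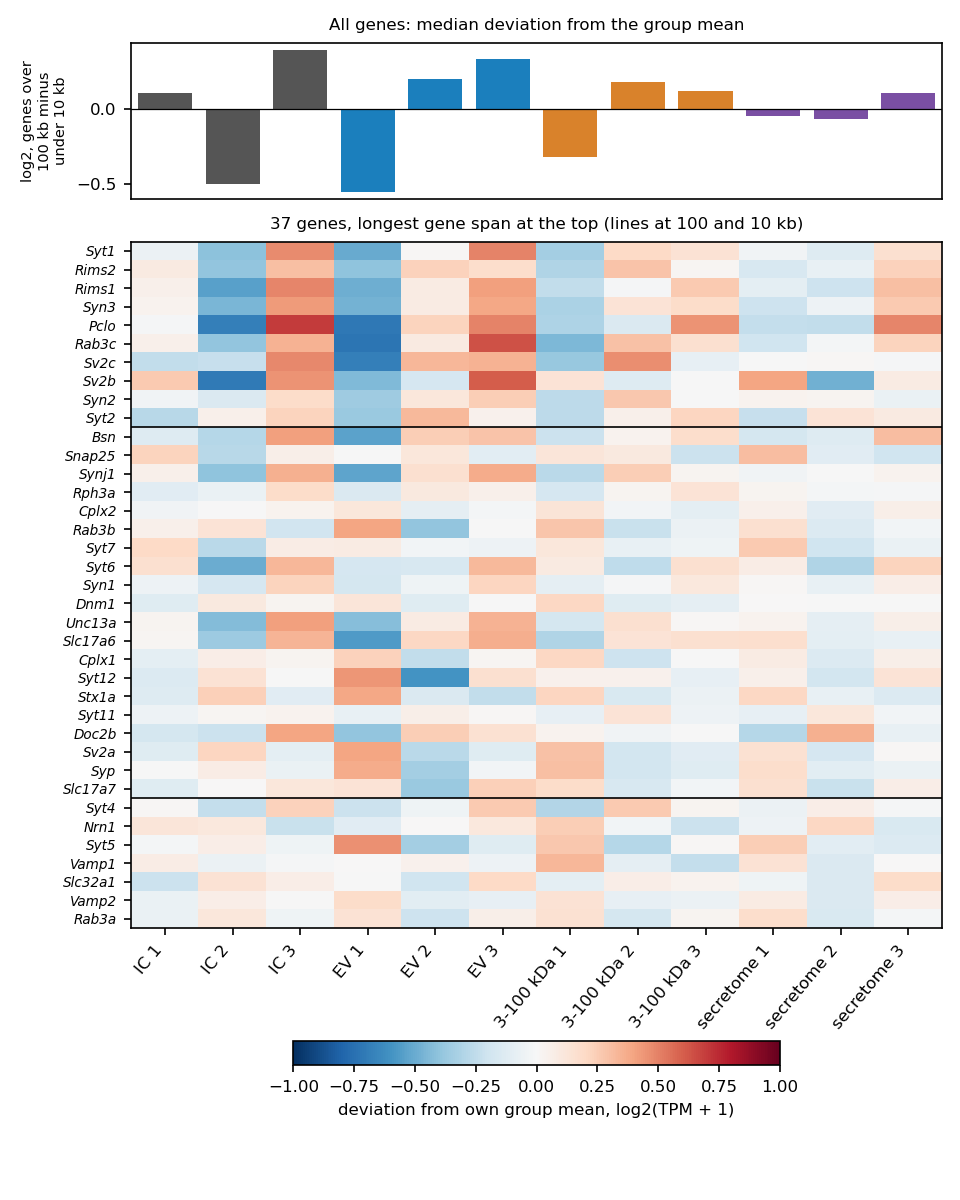
Deviation of each of the 37 genes (rows, longest gene span at the top) from its own group mean on log2(TPM + 1) in the 12 libraries (columns), with the bars above giving the same for all genes over 100 kb minus those under 10 kb. Of the 10 longest members, all are below their group mean (blue) in EV 1, 9 are in IC 2 and 9 in 3-100 kDa replicate 1, and all are above it (red) in IC 3 and EV 3.

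Other genes of the presynaptic terminal were counted as a list of 75, with 68 or 69 tested in the comparisons with IC. With EV, 0 passed the FDR or an unadjusted p under 0.05, beside 0.141% and 2.82% of all genes, with a median of -0.01, and the 3 of lowest p were Synj2 (0.43, SE 0.22), Vamp3 (0.20, SE 0.13) and Rab3d (-0.31, SE 0.22). With the 3-100 kDa proteins the median was -0.08, and 1 gene of 68 passed the FDR, beside 3.31% of all genes. This was Synj2, a relative of Synj1, with 3.52, 3.46 and 3.14 TPM against 1.05, 1.18 and 0.962 TPM in IC (1.10, SE 0.19, limma adjusted p = 0.0262). At an unadjusted p under 0.05 there were 3 higher and 5 lower of 68, where 17.0% of all genes were under it. With the total secretome the median was -0.14, and 1 gene of 68 passed, beside 1.97% of all genes. This was Lin7a, an adaptor on both sides of the synapse, with 16.4, 12.1 and 13.9 TPM against 7.65, 4.15 and 4.91 TPM (1.25, SE 0.21, limma adjusted p = 0.0344). At an unadjusted p under 0.05 there were 5 higher and 8 lower of 68, where 16.2% of all genes were under it. The medians of these further presynaptic genes had the same sign as those of the members.

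The summed level of the members was set beside that of cell type markers. The 37 members summed to between 3970 and 4193 TPM in IC, 3962 and 4153 with EV, 3326 and 3955 with the 3-100 kDa proteins and 3309 and 3985 with the total secretome. The highest total secretome library lay within the IC range, and the highest 3-100 kDa library lay just below the lowest IC library. The 10 neuron markers, all of them tested, summed to between 4689 and 5168 TPM in IC, 4631 and 5342 with EV, 3911 and 4957 with the 3-100 kDa proteins and 3952 and 4923 with the total secretome. Their median differences from IC were 0.00, -0.10 and -0.18, close to those of the members. The neuron markers were not uniform, as the neurofilament gene Nefm rose by 0.79 with the 3-100 kDa proteins (limma adjusted p = 0.0287) while Elavl4 was at -0.39 and -0.45. In bulk RNA, fewer neurons and less of these transcripts per neuron cannot be told apart.

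The 9 astrocyte markers summed to between 1051 and 1523 TPM in IC, 1310 and 1748 with EV, 1261 and 1657 with the 3-100 kDa proteins and 1447 and 1847 with the total secretome, with median differences of 0.01, 0.19 and 0.27. The oligodendrocyte lineage markers summed to between 227 and 305 TPM in IC, 235 and 277 with EV, 160 and 245 with the 3-100 kDa proteins and 283 and 333 with the total secretome. Their median differences were -0.08, -0.41 and 0.19. Of the 8 microglia markers 7 were under 1 TPM in every library and the highest value was 1.70 TPM, and 3 of 5 endothelial and mural markers were under 1 TPM in every library. The medians of neuron and astrocyte markers thus had opposite signs with the protein preparations. Their part in the point estimates of release genes below IC was not tested.

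**Figure D5:**
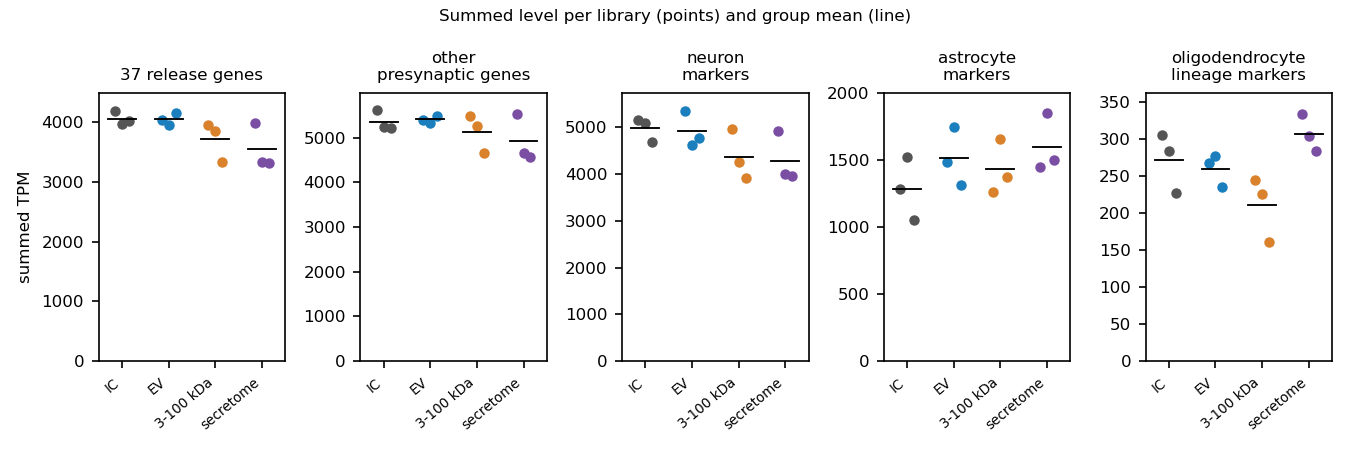
Summed TPM of the 37 release genes, of other presynaptic genes and of neuron, astrocyte and oligodendrocyte lineage markers in each library (points), with the group mean (line). The release genes and the neuron markers were lower in 2 of 3 libraries of the total secretome than in any IC library, at 3309 and 3338 TPM for the release genes.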

How the data were processed

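The deposited files give 1 value per gene and library with no unit named. They sum to 1000000 in each of the 12 libraries, and were read here as TPM, which the authors computed with Salmon against rat transcripts (rn6 in the methods, Rnor_6.0 in the labels, with the genome as decoy) and summarised with tximport, after FastQC, Trimmomatic and Cutadapt. The labels describe a strand-specific DNBSEQ mRNA library, and the methods poly(A) selection with another kit and a NextSeq instrument. TPM keeps no depth, so precision rests on the spread between libraries alone. The methods speak in general of unrelated cultures, and the authors corrected a plot for day, but no source used here ties a library to a culture or day, so the p-values may measure technical spread.

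Rows of the same name were summed, TPM was rescaled by median-of-ratios factors within each pair of groups, and a gene was kept if 3 or more of the 6 libraries reached 1 TPM. Groups were compared on log2(TPM + 1) with limma 3.58.1 in R 4.3.3 (trended eBayes, Benjamini-Hochberg over all genes, FDR 0.05), since the edgeR test that the authors name needs counts. A second rule was an unadjusted p under 0.05 with a fold over 1.5. The fit was also run on simulated data with known folds. The simulated noise was independent between genes and libraries, so that run says nothing on the shared spread seen here. The named genes were members passing either rule, the most abundant of each role in IC and 7 textbook markers; Syn2, Sv2a, Dnm1, Cplx1, Syt4, Syt12 and Sv2c were added after their values were seen. The members and lists were chosen with earlier results of these data known. Promoters came from RefSeq (GRCr8).

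The labels number the libraries 1 to 3. Deviations of same-numbered libraries correlated at 0.243, 0.143 and 0.157 for the total secretome and IC, at 0.549, 0.253 and 0.274 for EV with the 3-100 kDa proteins, at 0.241, 0.178 and 0.185 for EV with the total secretome, and at 0.342, 0.171 and 0.199 for the protein preparations, so these groups were read as paired. For EV and IC (-0.0486, -0.157 and 0.475) and the 3-100 kDa proteins and IC (0.0143, -0.215 and 0.218) they were not. Alternatives were no or upper-quartile rescaling, a pseudocount of 0.1, no filter or at least 5 TPM, all 12 libraries in 1 fit, the replicate block, and leaving out each library.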

Additional observations from a re-analysis of the deposited data

How the results depend on the processing

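The count of members passing the FDR rested on small margins. For the 3-100 kDa proteins against IC it went from 1 to 0 without rescaling, with upper-quartile rescaling, with no filter on low values and with the replicate block (all genes 2.65%, 3.05%, 1.86% and 1.51%), and to 2 (Nrn1 and Rph3a) with all 12 libraries in 1 fit, where calls over all genes went from 3.31% to 7.34%. For the total secretome against IC it went from 1 to 0 without rescaling, with a pseudocount of 0.1, with no filter and with the replicate block (all genes 1.77%, 1.86%, 1.11% and 1.96%), and to 2 with all 12 libraries (all genes 1.97% to 4.22%). The adjusted p of Nrn1 with the 3-100 kDa proteins was between 0.00639 and 0.103 over the settings that kept all its libraries, and that of Rph3a with the total secretome between 0.0117 and 0.0692. For EV against the 3-100 kDa proteins the count went from 0 to 1 with all 12 libraries, to 2 with the replicate block, and to 1 (Nrn1) without the libraries in which long genes were low, a setting chosen after seeing the data, while all genes went from 0.534% to 1.44%, 2.67% and 1.28%. For EV against the total secretome it went from 0 to 1 with all 12 libraries (all genes 0.188% to 0.455%). Without the libraries in which long genes were low, the members with p under 0.05 and a fold over 1.5 for the 3-100 kDa proteins went from 1 to 2 (Nrn1 and Sv2c), and all genes from 10.0% to 13.0%.

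Leaving out the libraries 1 at a time, the count at the FDR was 0 to 0 for the 3-100 kDa proteins against IC, 0 to 3 for the total secretome against IC (3 without IC 2, beside 6.41% of all genes), 0 to 1 for EV against the total secretome (Rph3a without EV 1) and 0 for EV against IC, EV against the 3-100 kDa proteins and the total secretome against the 3-100 kDa proteins. The share of all genes at the FDR ran from 0.658% to 3.84%, 0.246% to 6.41%, 0 to 0.412%, 0 to 0.167%, 0.0159% to 0.572% and 0 to 0.0239% in this order. The count by the second rule was 1 to 2 for the 3-100 kDa proteins against IC (all genes 8.07% to 12.5%), 1 to 3 for the total secretome against IC (6.29% to 10.9%), 1 to 3 for EV against the 3-100 kDa proteins (4.06% to 6.8%), 0 to 1 for EV against IC (Syt12 without EV 2, beside 1.73%), and 1 to 6 for EV against the total secretome, where EV 1 was the library left out at 6 and all genes went from 4.00% to 7.06%. The median difference of the members stayed between -0.0945 and 0.0515 for EV, -0.174 and -0.0409 for the 3-100 kDa proteins and -0.245 and -0.107 for the total secretome. For EV against IC the replicate block left 0 calls over all genes, in place of 18. For the 3-100 kDa proteins against IC it gave Nrn1 a limma adjusted p of 0.0898. With the block, the members at an unadjusted p under 0.05 went from 1 lower and 1 higher to 4 lower and 8 higher for EV against the 3-100 kDa proteins, where the share of all genes went from 9.34% to 21.1%, from 0 to 2 lower for the total secretome against the 3-100 kDa proteins (all genes 2.64% to 5.24%), and from 1 lower and 4 higher to 1 lower and 6 higher for EV against the total secretome (all genes 7.7% to 10.0%). Among the members the block changed no call at the FDR other than those given above. Over all genes it moved the calls from 423 to 193 for the 3-100 kDa proteins against IC and from 252 to 250 for the total secretome against IC. They went from 24 to 20 for EV against the total secretome and from 2 to 5 for the total secretome against the 3-100 kDa proteins. The calls of Synj2, Lin7a and Nefm are given without the block only. Why these calls changed was not tested. The difference of Nrn1 with the 3-100 kDa proteins and that of Rph3a with the total secretome kept their direction in all settings run. Depth is unknown, so what it limits cannot be stated.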
